A study of Mus musculus with 9 samples.

Results

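The Groucho family was followed through whole pancreas of e18.5 mouse embryos, a late stage of fetal development. Its members were taken by name: the rows Tle1, Tle2, Tle3, Tle4 and Tle6 of the count tables and the row Aes, the older symbol of Tle5. They are 6 of 55453 gene symbols, and all 6 passed the filter on low counts that left 19166 genes for testing.

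The study sequenced RNA from 3 embryos of each of 3 genotypes on a strain background labelled mixed, C57BL6. The first group is labelled Pdx1:Cre;Grg3 and is called Grg3 mutant here, the second is labelled Pdx1:Cre;Grg3Grg4 and is called Grg3 Grg4 mutant, and the control group is labelled Pdx1:Cre alone. Grg3 and Grg4 are the proteins of Tle3 and Tle4. All groups carry Pdx1:Cre, a recombinase expressed from the promoter of Pdx1, a factor of pancreatic epithelium, so there is no group without Cre. If the alleles need Cre, cells of the organ outside the Pdx1 lineage keep them intact. The sources used here do not give which exons the alleles lack or whether they are floxed.

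Groucho proteins are co-repressors that do not bind DNA themselves. The full-length members Tle1 to Tle4 join into tetramers through a glutamine-rich N-terminal domain, and are recruited by a C-terminal WD40 domain to transcription factors such as Hes proteins, Tcf and Lef factors, Runx factors and islet homeodomain factors, where they bring in histone deacetylases. Aes is a short member that keeps the N-terminal domain and lacks the WD40 domain, and it can interfere with the full-length members. Tle6 is a divergent member with a WD40 domain, known best from the oocyte and early embryo. In the pancreas, Groucho proteins are known as partners of Nkx2-2, Nkx6-1 and other factors that set islet cell types.

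On GRCm38 with the GENCODE M21 annotation, all 6 are protein-coding genes. Tle3 lies at chr9:61372366-61418497 on the plus strand, Tle4 at chr19:14448150-14598051 on the minus strand and Tle1 at chr4:72117142-72200919 on the minus strand. The other 3 sit side by side on chromosome 10 within 41.6 kb: Aes at chr10:81559488-81566362 on the plus strand, Tle2 at chr10:81574561-81590845 on the plus strand and Tle6 at chr10:81590904-81601073 on the minus strand. Aes and Tle2 are 8.20 kb apart, and Tle2 and Tle6 converge with their annotated ends 59 bp apart. Tle1 and Tle2 each overlap an antisense gene. Gm11250, antisense to Tle1, had 0 counts in all libraries, and Gm15917, antisense to Tle2, had 5 to 23 counts per library. Whether reads were counted by strand is not stated, so reads of Tle2 and Gm15917 cannot be told apart where they overlap.

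Promoter sequences of 5 of the 6 members were matched in RefSeq on GRCm38.p6, as the 250 bases before a start site. They are shown for the members labelled as mutated, Tle3 and Tle4, and for Tle2 and Tle6. Tle2 passed the test described below in libraries labelled Grg3 Grg4 mutant against controls, though not in every fit. Tle6 shares a stretch with Tle3 and Tle4. Where a gene has more than 1 start, the window farthest upstream is given. Capitals mark CACGTG, the E-box that basic helix-loop-helix factors of the Hes and Hey class and others can bind. The windows are chr9:61372116-61372365 on the plus strand for Tle3, chr19:14598184-14598433 on the minus strand for Tle4, chr10:81600901-81601150 on the minus strand for Tle6 and chr10:81575037-81575286 on the plus strand for Tle2.
Tle3: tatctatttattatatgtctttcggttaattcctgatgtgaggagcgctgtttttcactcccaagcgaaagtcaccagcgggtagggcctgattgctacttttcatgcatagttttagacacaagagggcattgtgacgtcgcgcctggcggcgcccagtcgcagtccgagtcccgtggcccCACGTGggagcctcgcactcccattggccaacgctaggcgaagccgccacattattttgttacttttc
Tle4: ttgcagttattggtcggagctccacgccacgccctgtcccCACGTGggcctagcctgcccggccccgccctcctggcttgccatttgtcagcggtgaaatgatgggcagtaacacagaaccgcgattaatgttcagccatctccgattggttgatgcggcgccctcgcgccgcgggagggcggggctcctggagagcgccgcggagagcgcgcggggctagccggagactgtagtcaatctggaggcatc
Tle6: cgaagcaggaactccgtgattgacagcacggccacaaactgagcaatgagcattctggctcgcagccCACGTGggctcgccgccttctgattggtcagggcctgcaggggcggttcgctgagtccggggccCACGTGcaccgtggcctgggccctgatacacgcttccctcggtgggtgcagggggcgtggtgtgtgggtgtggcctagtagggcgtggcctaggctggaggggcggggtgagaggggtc
Tle2: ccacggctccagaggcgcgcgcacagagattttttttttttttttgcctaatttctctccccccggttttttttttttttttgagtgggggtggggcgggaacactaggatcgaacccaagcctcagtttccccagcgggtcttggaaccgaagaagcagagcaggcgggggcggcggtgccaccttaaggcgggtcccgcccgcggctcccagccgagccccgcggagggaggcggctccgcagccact
CACGTG, which reads the same on both strands, stands 68 bases before the start of Tle3, 210 before that of Tle4 and 183 before that of Tle6, whose window holds it 2 times. It is present in 6.02% of the 32851 RefSeq windows of this length. In Tle3 and Tle4, and for 1 of the 2 copies in Tle6, it lies inside the longer palindrome CCCACGTGGG, which was searched for after the sequences had been read and is present in 30 windows, 0.0913% of all. The windows of Tle2 and Tle1, and the other windows of Tle4 and Tle6, hold no CACGTG. The N-box CACNAG, searched on both strands, is in 36.7% of all windows, with 2 matches in Tle3 and 1 in Tle2. The letters CTTTGAT of Tcf and Lef factors (3.21% of windows) and TGTTTAC of forkhead factors (3.17%) were in no window of a member on either strand. GC content was 52.4% for Tle3, 65.2% for Tle4, 67.2% for Tle6, 61.6% for Tle2 and 77.2% for Tle1. The median of all windows was 52.4%. These matches describe the letters in a window and say nothing of binding.

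Gene counts summed to between 46817453 and 62744499 per library. The sex of the embryos, judged by Xist and genes of the Y chromosome, was uneven: all 3 Grg3 Grg4 mutant libraries, 1 of 3 Grg3 mutant libraries and 1 of 3 controls were male. Summed acinar markers were 133071 to 245114 counts scaled to a common library size (CPM, after TMM scaling) in Grg3 mutant, 158002 to 182068 CPM in Grg3 Grg4 mutant and 231150 to 261316 CPM in control libraries. Liver markers stood apart from the pancreatic label: their sum was 364 to 1805 CPM in Grg3 mutant and 843 to 2045 CPM in Grg3 Grg4 mutant libraries, against 213 to 228 CPM in controls, and 9 of 12 were called higher in each mutant group. Alb, a hepatocyte gene, was at 37.9 to 636 CPM and 257 to 810 CPM in the mutant groups in that order, against 2.37 to 5.47 CPM in controls. In bulk tissue, fewer cells of a type and less RNA per cell cannot be told apart.

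Tle3, the gene of Grg3, was higher and not lower in the libraries labelled as mutant for it. It had 148, 167 and 145 CPM in libraries labelled Grg3 mutant, 131, 126 and 146 CPM in libraries labelled Grg3 Grg4 mutant, and 63.1, 67.7 and 63.6 CPM in controls. Every library labelled mutant was above every control, and the lowest of them exceeded the highest control 2.14-fold in the Grg3 and 1.87-fold in the Grg3 Grg4 group. The counts add up reads over all exons of a gene, so they do not show whether a deleted stretch of Tle3 was lost. The summed count therefore does not check the labels.

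The test of edgeR's quasi-likelihood model, with Benjamini-Hochberg adjustment over all genes tested and calls at an adjusted p under 0.05, called Tle3 higher in both comparisons with control. The log2 fold change was 1.24 (SE 0.09, 95% interval 1.04 to 1.44, adjusted p = 0.00027) for libraries labelled Grg3 mutant, a 2.36-fold difference. It was 1.05 (SE 0.09, 95% interval 0.86 to 1.25, adjusted p = 0.000557) for libraries labelled Grg3 Grg4 mutant, a 2.08-fold difference. By p, Tle3 was the gene of rank 5 in the first comparison and of rank 10 in the second. Both comparisons use the same 3 controls. Beside these levels of Tle3, the summed liver markers were 1805, 364 and 802 CPM in libraries labelled Grg3 mutant, 843, 1011 and 2045 CPM in libraries labelled Grg3 Grg4 mutant, and 213, 228 and 218 CPM in controls. Their part in the level of Tle3 was not tested.

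Of the 6 members, 1 was called in libraries labelled Grg3 mutant, Tle3, while 1.4% of all genes tested were called and 0.704% were called higher. Tle3 and Tle2 were called, both higher, in libraries labelled Grg3 Grg4 mutant, while 2.14% of all genes were called and 1.24% were called higher. Between libraries labelled Grg3 Grg4 mutant and libraries labelled Grg3 mutant, no member was called by edgeR, and 0.188% of all genes were. At an unadjusted p under 0.05 there were 3319 genes in that last comparison, and the Wald test of DESeq2 called 1 member, Tle2. DESeq2 called more genes than edgeR in every comparison. Over all genes tested, the median log2 fold change was 0.02, 0.01 and 0.00 in the 3 comparisons.

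**Figure D1:**
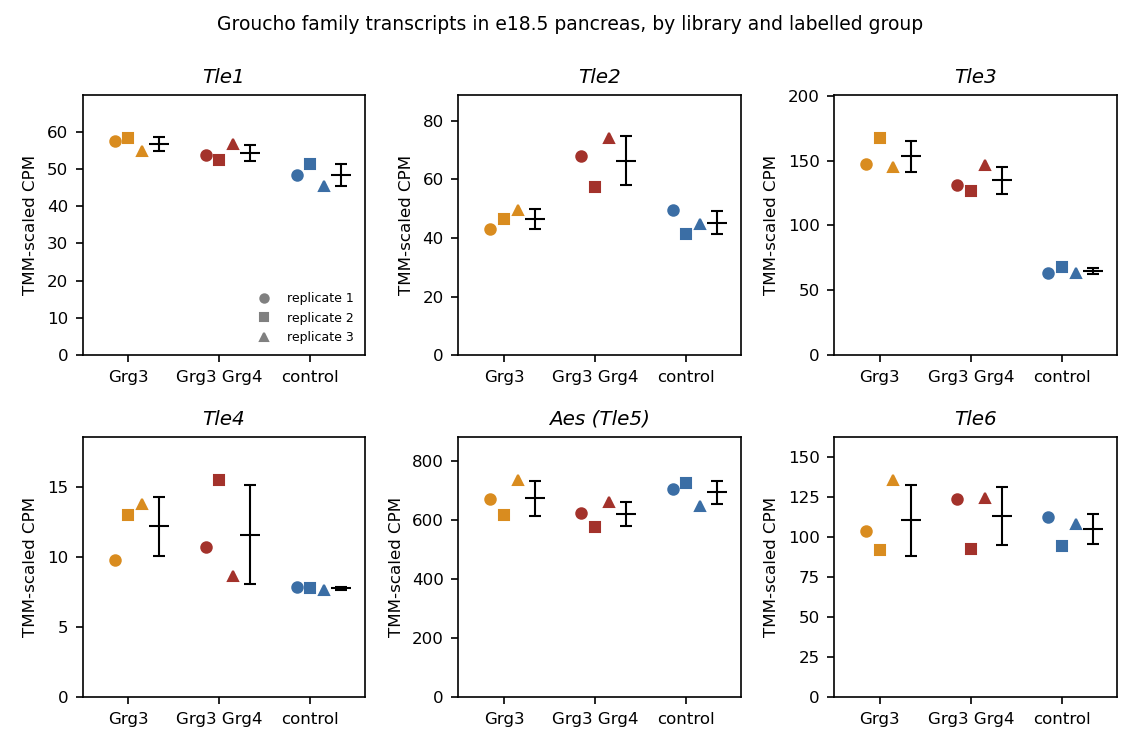
TMM-scaled CPM of the 6 family members (vertical axis, from 0) in each library, grouped as labelled, with replicate number as the marker shape and mean ± SD beside the points (n = 3). Tle3 lies between 126 and 167 CPM in the libraries labelled mutant and between 63.1 and 67.7 CPM in controls, and Tle2 is above both other groups in libraries labelled Grg3 Grg4 mutant.

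Tle4, the gene of Grg4, was the least abundant member, and each of its 6 mutant-labelled libraries was above each control. It had 9.83, 13.0 and 13.8 CPM in libraries labelled Grg3 mutant, 10.7, 15.5 and 8.63 CPM in libraries labelled Grg3 Grg4 mutant, and 7.84, 7.79 and 7.68 CPM in controls. Against controls there was no overlap, but the spread within the mutant groups was wide. The coefficient of variation was 17.2% and 30.3% in the Grg3 and Grg3 Grg4 groups, against 1.1% in controls, where counting error alone gives 5.23%. Tle4 was not called: the log2 fold change was 0.65 (SE 0.21, adjusted p = 0.132) for libraries labelled Grg3 mutant and 0.58 (SE 0.21, adjusted p = 0.155) for libraries labelled Grg3 Grg4 mutant. Without Grg3 Grg4 mutant replicate 2, its highest library, the second of these was 0.32 (adjusted p = 0.422). DESeq2 called the first, with an adjusted p of 0.0411.

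Between embryos labelled with both mutations and those labelled with Grg3 alone, Tle4 did not pass the test, at 11.6 ± 3.52 CPM in libraries labelled Grg3 Grg4 mutant and 12.2 ± 2.10 CPM in libraries labelled Grg3 mutant (SD, n = 3). The log2 fold change between them was -0.07, with a 95% interval of -0.53 to 0.38 (edgeR adjusted p = 0.886). As for Tle3, counts over all exons do not show whether a deleted stretch was lost.

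Muscle transcripts moved with Tle4 across most libraries. Grg3 mutant replicate 3 stood apart, with the most Tle4 of its group but not the most muscle RNA. The summed level of 11 smooth and skeletal muscle markers was 340, 985 and 412 CPM in libraries labelled Grg3 mutant, 465, 2335 and 231 CPM in libraries labelled Grg3 Grg4 mutant, and 185, 143 and 127 CPM in controls. All 6 libraries labelled mutant were above the controls, and no marker of the 11 was called or at 0 in all libraries. Actg2, the enteric smooth muscle actin, was at 28.3, 138 and 56.5 CPM, at 42.8, 150 and 11.8 CPM, and at 6.34, 4.79 and 3.43 CPM in the same libraries. Among the genes tested, symbols that start with Gm or end in Rik left out, the log2 CPM of Actg2 had the highest likeness to that of Tle4, with Pearson r = 0.957 and Spearman rho = 0.983 over the 9 libraries. The part of muscle tissue in the level of Tle4 was not tested.

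**Figure D2:**
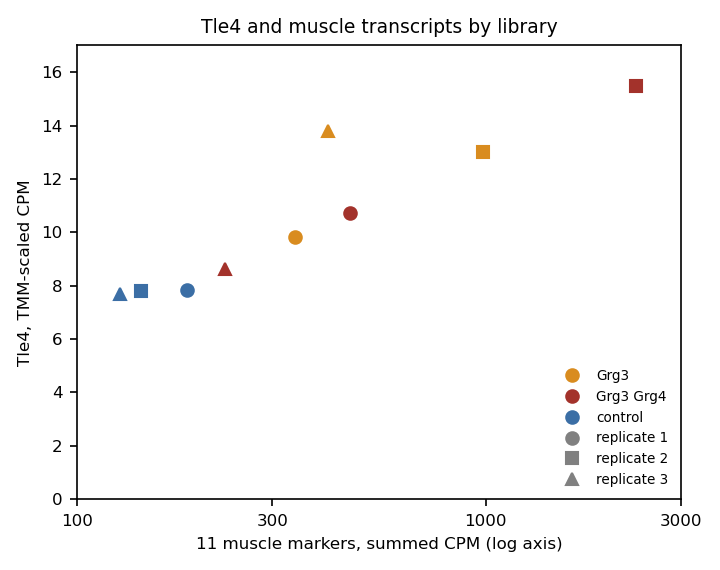
TMM-scaled CPM of Tle4 (vertical axis, from 0) against the summed CPM of 11 muscle markers (horizontal log axis), 1 point per library, with colour for the labelled group and shape for the replicate. The library with the most muscle RNA, Grg3 Grg4 mutant replicate 2 at 2335 CPM, also has the most Tle4, 15.5 CPM, and the 3 controls lie lowest on both axes.

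Tle1, a full-length member not named in the labels, was slightly above controls in every library labelled mutant. It had 57.4, 58.2 and 54.7 CPM in libraries labelled Grg3 mutant, 53.9, 52.4 and 56.6 CPM in libraries labelled Grg3 Grg4 mutant, and 48.4, 51.3 and 45.4 CPM in controls. The margin was small: the lowest library labelled mutant exceeded the highest control 1.07-fold and 1.02-fold. Tle1 was not called, with log2 fold changes of 0.23 (SE 0.07, edgeR adjusted p = 0.125) and 0.17 (SE 0.07, adjusted p = 0.227). Across the 9 libraries, Tle1 and Tle3 had a Pearson r of 0.91 and a Spearman rho of 0.983, as a description of 3 groups of libraries.

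Tle1, Tle3 and Tle4 were each above all 3 controls in all 6 libraries labelled mutant, as were 4.91% of all genes tested. In the comparisons one by one, 12.6% of genes were above control without overlap in libraries labelled Grg3 mutant and 14.9% in libraries labelled Grg3 Grg4 mutant.

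Tle2, the other full-length member not named in the labels, was higher in libraries labelled Grg3 Grg4 mutant than in controls. It had 68.2, 57.3 and 74.0 CPM there, 43.0, 46.6 and 49.6 CPM in libraries labelled Grg3 mutant, and 49.4, 41.5 and 44.8 CPM in controls. The first group lay above both others without overlap, its lowest library 1.15-fold above the highest labelled Grg3 mutant and 1.16-fold above the highest control, while the Grg3 and control groups overlapped. Against control, the log2 fold change was 0.55 (SE 0.11, 95% interval 0.31 to 0.80, edgeR adjusted p = 0.0342), a 1.47-fold difference. The direct comparison with libraries labelled Grg3 mutant gave 0.52 (SE 0.11, 95% interval 0.28 to 0.76), which missed the threshold with an adjusted p of 0.0804. There, 11.8% of all genes were higher without overlap.

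The call of Tle2 depended on single libraries and on whether the fit held a term for sex. It was lost without any 1 of the 3 controls (adjusted p = 0.067, 0.173 and 0.128 without replicates 1, 2 and 3), and without Grg3 Grg4 mutant replicate 1 (0.0854) or 3 (0.0787). With embryo sex as a term in the fit the log2 fold change was 0.54 (SE 0.14), beside 0.55 (SE 0.11) without it, and the edgeR adjusted p was 0.171. Among the male libraries, the 3 labelled Grg3 Grg4 mutant were at 57.3 to 74.0 CPM, the 1 labelled Grg3 mutant was at 43.0 CPM and the 1 control was at 49.4 CPM. For libraries labelled Grg3 mutant against control, Tle2 had a log2 fold change of 0.04 with a 95% interval of -0.20 to 0.28.

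Aes, the short member, was by far the most abundant, and its groups overlapped. It had 671, 617 and 734 CPM in libraries labelled Grg3 mutant, 624, 577 and 661 CPM in libraries labelled Grg3 Grg4 mutant, and 706, 726 and 649 CPM in controls. The log2 fold change was -0.04 (95% interval -0.28 to 0.20) for libraries labelled Grg3 mutant and -0.16 (95% interval -0.40 to 0.08) for libraries labelled Grg3 Grg4 mutant. Neither passed the edgeR test, with adjusted p-values of 0.877 and 0.436.

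Tle6, the divergent member, had 104, 91.9 and 135 CPM in libraries labelled Grg3 mutant, 124, 92.5 and 124 CPM in libraries labelled Grg3 Grg4 mutant, and 113, 94.6 and 108 CPM in controls. The groups overlapped throughout, and the library numbered 2 was the lowest in each group. The log2 fold changes were 0.07 (95% interval -0.28 to 0.42) and 0.11 (95% interval -0.24 to 0.46), with edgeR adjusted p-values of 0.859 and 0.749. Tle2 and Tle6, whose ends meet, had a Pearson r of 0.492 over the 9 libraries.

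**Figure D3:**
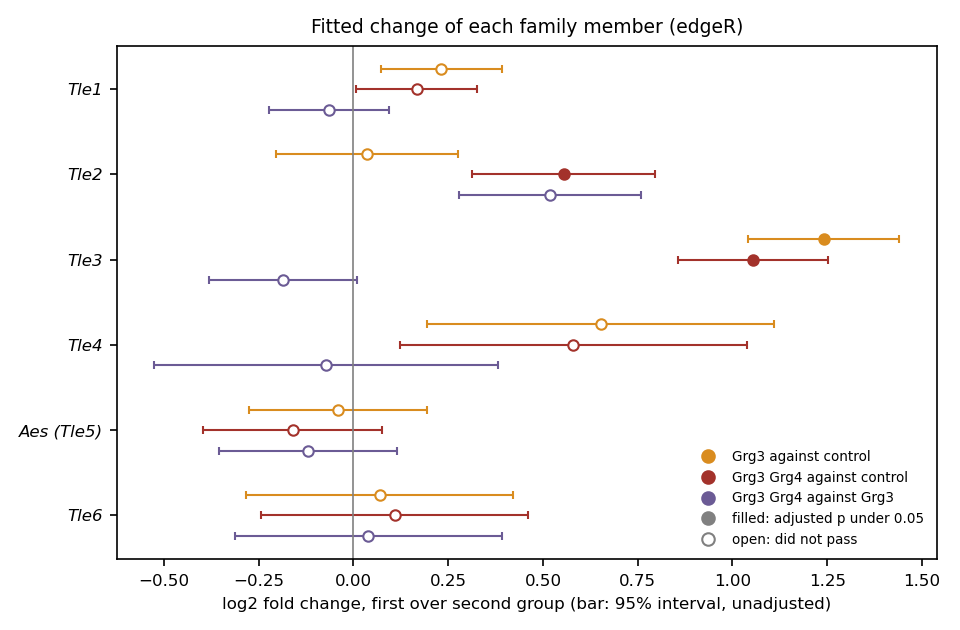
Fitted log2 fold change (horizontal axis) of each family member in 3 comparisons, first over second group, with unadjusted 95% intervals as bars and filled points where the edgeR adjusted p was under 0.05. Filled points are Tle3 in both comparisons with control, at 1.24 and 1.05, and Tle2 in libraries labelled Grg3 Grg4 mutant against control, at 0.55.

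Levels of different genes were compared as CPM per kb of exon, dividing by the summed length of all annotated exons of a gene. On this scale Aes was at 202 ± 17.6 in libraries labelled Grg3 mutant, 186 ± 12.6 in libraries labelled Grg3 Grg4 mutant and 208 ± 12.0 in controls (SD, n = 3 each). Tle6 was at 35.7 ± 7.28, 36.7 ± 5.88 and 34.1 ± 3.04 CPM per kb in the same order of groups. Both short or divergent members thus stood above every full-length member in every group.

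Among the full-length members, the level of Tle3 was 13.1 ± 1.03 CPM per kb in libraries labelled Grg3 mutant, 11.6 ± 0.895 in libraries labelled Grg3 Grg4 mutant and 5.56 ± 0.215 in controls. Tle2 had 7.46 ± 0.538, 10.7 ± 1.36 and 7.27 ± 0.641 CPM per kb in that order of groups, and Tle1 had 6.52 ± 0.211, 6.23 ± 0.249 and 5.55 ± 0.337. Tle4 was lowest everywhere, at 2.14 ± 0.369, 2.04 ± 0.617 and 1.36 ± 0.015 CPM per kb. In controls, Tle1 and Tle3 did not differ beyond their spread and Tle2 was above them. Tle3 and Tle2 did not differ beyond their spread in libraries labelled Grg3 Grg4 mutant.

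The order of Tle1, Tle2 and Tle3 in controls depended on the length used. Per kb of the longest annotated transcript, controls had Tle1 at 11.1 ± 0.672, Tle2 at 10.3 ± 0.909 and Tle3 at 7.50 ± 0.290 CPM per kb. On that scale too, Tle3 was the highest full-length member in libraries labelled Grg3 mutant, at 17.7 CPM per kb, with Tle1 at 13.0 and Tle2 at 10.6. In libraries labelled Grg3 Grg4 mutant Tle3 had 15.6 ± 1.21 and Tle2 15.1 ± 1.94 CPM per kb. Tle2 was the higher of them in replicate 1 (15.5 against 15.2) and Tle3 in replicates 2 and 3.

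The full-length members together, Tle1 to Tle4, had a higher summed level in both mutant groups than in controls. It was 27.9, 30.8 and 29.1 CPM per kb of exon in libraries labelled Grg3 mutant, 30.3, 28.8 and 32.5 in libraries labelled Grg3 Grg4 mutant, and 20.3, 19.7 and 19.2 in controls. Every library labelled mutant was above every control, and the mutant groups overlapped each other. Leaving Tle3 out, the sum was 15.2, 16.5 and 16.7 CPM per kb in libraries labelled Grg3 mutant, 19.0, 17.9 and 19.9 in libraries labelled Grg3 Grg4 mutant, and 14.9, 13.9 and 13.8 in controls. The groups still did not overlap, but the gap between the Grg3 group and controls was small. These sums are descriptions and were not tested. They take all reads of Tle3 and Tle4 as full-length members, which gene counts cannot show in libraries labelled mutant for those genes.

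The make-up of the full-length pool differed as well. Tle3 made up 44.9 ± 1.98% of the summed Tle1 to Tle4 level per kb of exon in libraries labelled Grg3 mutant, 37.9 ± 0.760% in libraries labelled Grg3 Grg4 mutant and 28.2 ± 1.39% in controls. Tle2 made up 25.5 ± 1.67%, 34.9 ± 2.56% and 36.8 ± 2.74% in the same order of groups. Tle4 made up 7.30 ± 1.07%, 6.77 ± 2.44% and 6.90 ± 0.112%, with a range of 4.66% to 9.44% over the libraries labelled Grg3 Grg4 mutant. The ratio of Aes to the summed full-length members was 6.93 ± 0.817 in libraries labelled Grg3 mutant, 6.10 ± 0.085 in libraries labelled Grg3 Grg4 mutant and 10.5 ± 0.462 in controls. By these counts the short member was in smaller excess in both mutant groups. The shares and the ratio rest on all reads of Tle3 and Tle4. Whether that RNA was full-length in libraries labelled mutant for those genes is not shown by gene counts.

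**Figure D4:**
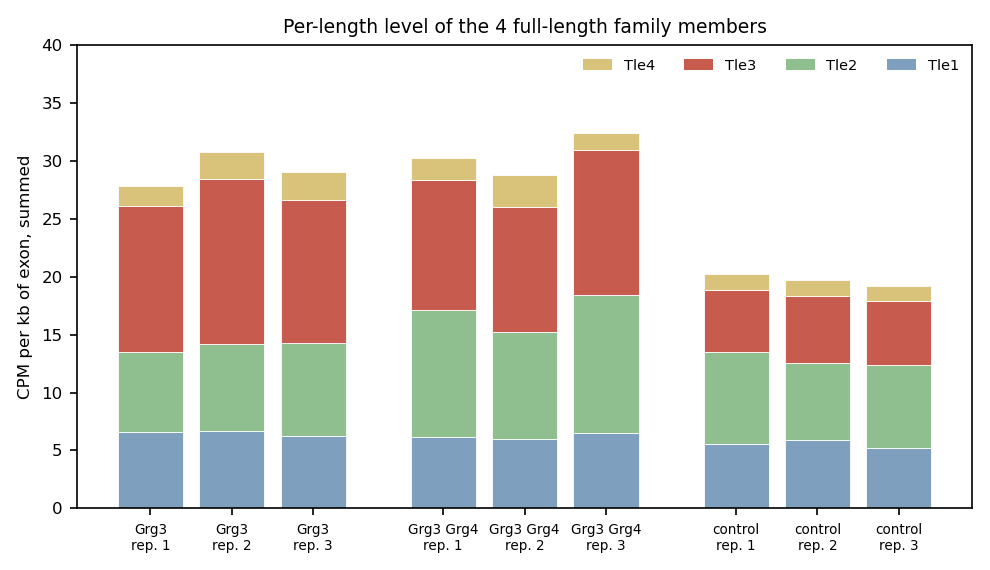
Summed level of the 4 full-length members in each library, in CPM per kb of exon (vertical axis, from 0), with a colour for each gene. The bars reach 27.9 to 32.5 in the libraries labelled mutant and 19.2 to 20.3 in controls, and the Tle3 segment accounts for most of the difference.

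The surroundings of the family genes were described by the 25 tested genes on either side. In libraries labelled Grg3 mutant against control, 0 of the 50 neighbours were called around Tle3, Tle4, Tle1 and the chromosome 10 locus alike, near the 1.4% of all genes called. In libraries labelled Grg3 Grg4 mutant against control, 1 of 50 was called around Tle3, 1 around Tle4, 2 around the chromosome 10 locus and 0 around Tle1, near the 2.14% of all genes called. The 4 genes are therefore given as a description of the loci only. The neighbour of Tle3 was Cd276, an immune checkpoint ligand 2817 kb away, at 31.2 ± 1.56 CPM in libraries labelled Grg3 Grg4 mutant and 43.7 ± 5.58 CPM in controls (log2 fold change -0.49, SE 0.10, edgeR adjusted p = 0.0357).

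Around Tle4 the called gene was Ms4a2, a subunit of the mast cell IgE receptor 2824 kb away, which was scarce, at 0.531 CPM in libraries labelled Grg3 Grg4 mutant and 0.092 CPM in controls (edgeR adjusted p = 0.0381). On chromosome 10, Ankrd24, an ankyrin repeat gene 27.5 kb beyond Tle6, was at 121 ± 13.0 CPM in libraries labelled Grg3 Grg4 mutant, 78.0 ± 14.3 CPM in libraries labelled Grg3 mutant and 76.9 ± 6.91 CPM in controls. Its log2 fold change against control was 0.65 (SE 0.14, edgeR adjusted p = 0.0413), beside 0.55 for Tle2, from which Tle6 separates it. Tdg, a thymine DNA glycosylase 1029 kb away, was lower, at 13.3 ± 5.26 CPM in libraries labelled Grg3 Grg4 mutant and 28.9 ± 3.10 CPM in controls (log2 fold change -1.12, SE 0.23, adjusted p = 0.0374). All 4 calls were lost with sex as a term and when any 1 of 5 libraries was left out: replicate 1 of the Grg3 mutant group, replicates 2 and 3 of the Grg3 Grg4 mutant group, and replicates 2 and 3 of the controls. Those of Ms4a2 and Tdg also needed control replicate 1 and Grg3 mutant replicate 3 (and that of Tdg was lost with only the 6 libraries compared), that of Ankrd24 control replicate 1 and Grg3 Grg4 mutant replicate 1, and those of Cd276 and Ms4a2 Grg3 mutant replicate 3 and Grg3 Grg4 mutant replicate 1. The calls had adjusted p-values of up to 0.197 for Cd276, 0.173 for Ms4a2, 0.202 for Ankrd24 and 0.162 for Tdg over all alternatives.

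Genes with the pattern most like each member were named by Pearson r of log2 CPM over the 9 libraries, which share 3 groups and their depths. For Tle3 they were Slc26a3, an intestinal chloride and bicarbonate exchanger (r = 0.986), Mzt1, a small protein of microtubule nucleation (0.981), and Shisa9, an auxiliary subunit of AMPA receptors (0.977). Shisa9 was at 9.92 ± 1.83 CPM in libraries labelled Grg3 mutant, 7.82 ± 1.21 CPM in libraries labelled Grg3 Grg4 mutant and 1.71 ± 0.497 CPM in controls, and was called in both comparisons with control (log2 fold changes 2.53 and 2.19, edgeR adjusted p = 0.00161 and 0.00321). With sex as a term, the second of these calls was lost, with an adjusted p of 0.0543. Slc26a3 was scarce, at 1.27, 0.903 and 0.0568 CPM in the same order of groups, while 12 stomach and intestine markers summed to 85.7 to 142 CPM, 74.6 to 89.9 CPM and 133 to 171 CPM in that order. Of the 7 of these markers that were tested, 3 were called higher and 0 lower in libraries labelled Grg3 mutant (median log2 fold change 4.34). In libraries labelled Grg3 Grg4 mutant, 1 was called higher and 1 lower (median 0.80), so single markers and the sum differ in sign. Of all genes tested, 0.704% and 1.24% were called higher in these comparisons, and 0.694% and 0.897% lower. Gkn1 and Gkn2, of the 12 markers, were at 3.63 and 6.36 CPM in Grg3 mutant replicate 3. In every other library they were at 0.0549 CPM or less. The part of the 12 markers in the level of Slc26a3 was not tested. Slc26a3 was called higher in both comparisons with control (edgeR adjusted p = 0.000467 and 0.000711) and under all 17 alternatives. Mzt1 differed far less, at 23.7, 21.9 and 18.0 CPM. Its call in libraries labelled Grg3 mutant (log2 fold change 0.40, SE 0.08, edgeR adjusted p = 0.0471) held under 4 of 17 alternatives.

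For Tle1 the genes were Nme4 (r = 0.978), Id1 (0.976) and Pym1 (0.976), with Id1, an inhibitor of basic helix-loop-helix factors, at 41.8 ± 3.07 CPM in libraries labelled Grg3 mutant and 24.8 ± 3.71 CPM in controls (log2 fold change 0.75, SE 0.14, edgeR adjusted p = 0.0324). That call was lost without any 1 of the 3 controls (adjusted p = 0.0769, 0.0535 and 0.159 without replicates 1, 2 and 3) and without Grg3 mutant replicate 1 (0.09) or 2 (0.0629), and with sex as a term (0.0535). For Tle2 they were Zfp408 (r = 0.977), Ppp6r2 (0.976) and Hnrnpdl (0.974). Hnrnpdl, an RNA-binding protein, was at 159 CPM in libraries labelled Grg3 Grg4 mutant and 120 CPM in controls (edgeR adjusted p = 0.0474, lost without any 1 library other than Grg3 mutant replicate 2, with sex as a term at 0.201 and with DESeq2 size factors at 0.0501). Beside Actg2, Tle4 was most like Cct8 (r = 0.944) and Ndufaf7 (0.936). Aes was most like Rab2a (r = 0.970), Cldn3 (0.954) and Eif4ebp1 (0.946). For Tle6 the highest values were lower, led by the pseudogene Ap3m1-ps (r = 0.907), then BC107364 (0.899) and Pdcd10 (0.894). Ap3m1-ps and BC107364 were near the floor, with group means of 0.147 to 0.238 CPM and 0.121 to 0.189 CPM.

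Lists of genes whose products recruit Groucho, act with it or modify it were read off the same test. The first list also holds beta-catenin and its partners, which are not listed as partners of Groucho. None of the 12 Tcf and Lef factors and beta-catenin partners was called in any comparison by edgeR, and their median log2 fold change was 0.10 in libraries labelled Grg3 mutant and 0.05 in libraries labelled Grg3 Grg4 mutant against control. Tcf7l1, a Tcf factor known as a repressor, was at 42.7, 41.7 and 35.8 CPM in libraries labelled Grg3 mutant, labelled Grg3 Grg4 mutant and control. Lef1 was scarce in all groups, at 0.555, 1.33 and 0.505 CPM.

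Of 12 Hes, Hey and related factors, among which the Hes proteins recruit Groucho through a short C-terminal motif, 8 were tested and none was called by edgeR. Hes2, Hes3, Hes5 and Helt did not pass the filter on low counts. The median log2 fold change was 0.29 in libraries labelled Grg3 mutant, with 7 of the 8 tested above 0, and 0.11 in libraries labelled Grg3 Grg4 mutant, with 5 of 8 above 0, beside medians of 0.02 and 0.01 over all genes. Hey1, a Notch effector, was at 16.0, 13.5 and 9.37 CPM in libraries labelled Grg3 mutant, labelled Grg3 Grg4 mutant and control, with edgeR adjusted p-values of 0.0552 and 0.123. Hes1, the main Notch effector of pancreatic progenitors, was at 50.8, 44.7 and 37.3 CPM, with edgeR adjusted p-values of 0.122 and 0.317. DESeq2, which called more genes than edgeR in every comparison, called both in libraries labelled Grg3 mutant. It called Hey1 in libraries labelled Grg3 Grg4 mutant.

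Of 19 pancreatic and Runt domain factors listed as Groucho partners, 18 were tested, and Six3 was not. Foxa1 was called higher in both mutant groups against control, and Foxa2 and Prdm1 were called lower in libraries labelled Grg3 Grg4 mutant. Of all genes tested, 0.694% were called lower in libraries labelled Grg3 mutant and 0.897% in libraries labelled Grg3 Grg4 mutant. The list shares Pax6 and Isl1 with the islet cell markers, of which 13 summed to 3729 to 5943 CPM in libraries labelled Grg3 mutant, 2000 to 4313 CPM in libraries labelled Grg3 Grg4 mutant and 6113 to 7383 CPM in controls, and their part in the list's values was not tested. Foxa1, a forkhead factor, had 4 counts over all 3 controls against 2215 over the 3 libraries labelled Grg3 mutant and 2118 over the 3 labelled Grg3 Grg4 mutant. Its mean level was 12.8 ± 2.02, 12.4 ± 1.02 and 0.0282 CPM in Grg3, Grg3 Grg4 and control libraries. Its edgeR adjusted p was 1.73e-07 and 1.29e-07. Why the controls held so few reads of Foxa1 was not tested.

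Foxa2, the related factor needed for islet and endoderm development, was at 28.1 ± 4.39 CPM in libraries labelled Grg3 Grg4 mutant and 41.7 ± 3.70 CPM in controls (log2 fold change -0.57, SE 0.13, edgeR adjusted p = 0.0488). Leaving out any 1 library of either group, or Grg3 mutant replicate 1 or 3, ended that call, as did sex as a term (adjusted p = 0.149) and a fit of only the 6 libraries compared (0.0506), and without control replicates 1, 2 and 3 its adjusted p was 0.132, 0.202 and 0.106. Prdm1, a zinc finger repressor, was at 1.87 ± 0.249 CPM in libraries labelled Grg3 Grg4 mutant and 4.68 ± 0.836 CPM in controls (log2 fold change -1.32, SE 0.21, edgeR adjusted p = 0.0188). It too was lost without control replicate 1 (0.061), 2 (0.0592) or 3 (0.0939), and with sex as a term (0.106). Prdm1 was at 2.37 ± 0.330 CPM in libraries labelled Grg3 mutant and missed the threshold, with an adjusted p of 0.0568.

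None of the 17 deacetylases and other co-repressors was called by edgeR in any comparison, with median log2 fold changes of 0.00 and 0.07 against control. Ncor1, a nuclear receptor co-repressor, was at 120, 135 and 149 CPM in libraries labelled Grg3 mutant, labelled Grg3 Grg4 mutant and control (edgeR adjusted p = 0.0904 and 0.373). DESeq2, with its larger number of calls over all genes, called Ncor1 lower in libraries labelled Grg3 mutant.

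Of 11 kinases and ubiquitin enzymes that act on Groucho, Hipk2 was called lower in both comparisons with control. Hipk2 is a nuclear kinase whose Drosophila counterpart phosphorylates Groucho and weakens repression by it. It was at 43.8 ± 0.301 CPM in libraries labelled Grg3 mutant, 46.3 ± 0.998 CPM in libraries labelled Grg3 Grg4 mutant and 66.2 ± 10.3 CPM in controls. The log2 fold changes were -0.60 (SE 0.10, edgeR adjusted p = 0.0293) and -0.52 (SE 0.10, adjusted p = 0.0357). The calls did not hold in every leave-one-out fit: without control replicate 2 or 3 the adjusted p was 0.141 and 0.132 for libraries labelled Grg3 mutant, and 0.17 and 0.127 for libraries labelled Grg3 Grg4 mutant. Both calls were also lost without Grg3 mutant replicate 1 (0.089 and 0.0587) or 3 (0.0604 and 0.0524) or Grg3 Grg4 mutant replicate 1 (0.0513 and 0.0878), and the second without Grg3 Grg4 mutant replicate 2 (0.0815) or 3 (0.0829) and with sex as a term (0.202).

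**Figure D5:**
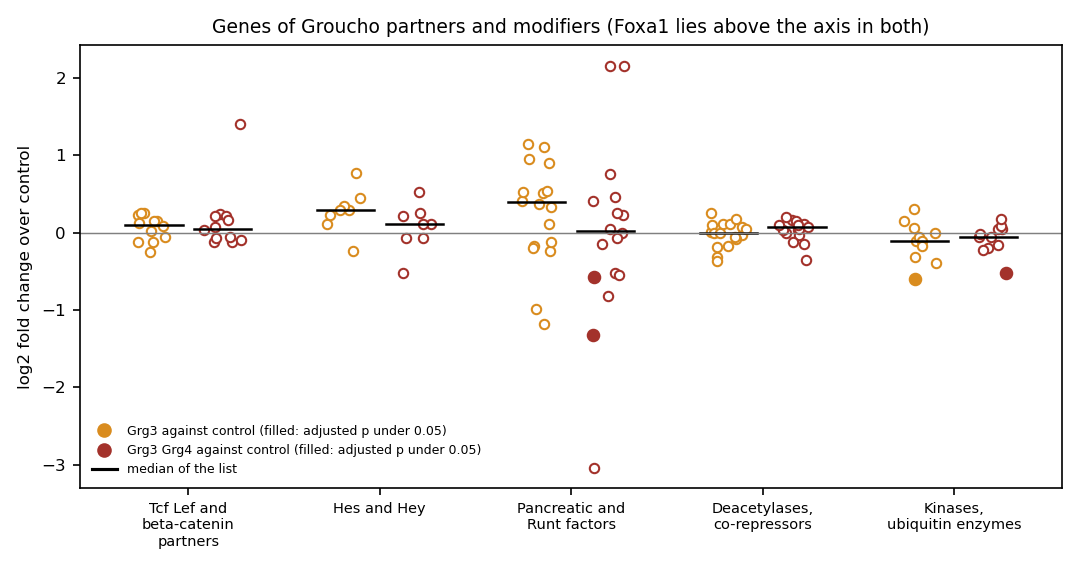
Log2 fold change over control (vertical axis) of the tested genes of 5 lists of Groucho partners and modifiers, the first with beta-catenin partners. There is 1 point per gene and comparison, with the list median as a line. Points are filled where the edgeR adjusted p was under 0.05. Filled points within the axis are Hipk2 in both groups labelled mutant and Foxa2 and Prdm1 in the group labelled Grg3 Grg4 mutant, and the list medians lie between -0.11 and 0.40.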

How the data were processed

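The authors deposited whole-number counts for each gene symbol in 1 table per library, without normalization. Per the submitters' processing notes, the builds were mm10 and GRCm38 and the tools included HISAT2, HTSeq, Trim Galore, FastQC, DESeq2 and bedtools, without roles. Tool versions, gene models and strandedness are not stated. The 5 rows that name no gene, 28.5% to 33.2% of the reads of a library, stayed out of library sizes and tests.

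With edgeR 4.0.16 (R 4.3.3), a 2-sided quasi-likelihood F test was fitted to all 9 libraries with a mean per group, TMM scaling and filterByExpr (minimum count 10, minimum total 15). CPM values are TMM-scaled and given as mean ± SD over 3 embryos. The SE is the log2 fold change divided by the square root of F, and 95% intervals are unadjusted. The test was tested on simulated data. The Wald test of DESeq2 1.42.0 and the settings named in the closing section were alternatives. Likeness used log2 CPM with a prior count of 2. Positions come from GENCODE M21 and promoters from RefSeq.

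Members and lists were chosen with earlier results of these data known. Named genes were the members, up to 4 genes of smallest p per list, up to 3 called neighbours per locus and the 3 most alike genes per member, without symbols that start with Gm or end in Rik. From these the text gives a selection, and some are not reported here. Alternatives for other called genes were added after seeing the data.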

Additional observations from a re-analysis of the deposited data

How the results depend on the processing

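Tle3 was called higher under all 17 alternatives in both comparisons with control, with log2 fold changes of 1.18 to 1.28 (labelled Grg3 mutant) and 0.99 to 1.10 (labelled Grg3 Grg4 mutant). Tle2 in libraries labelled Grg3 Grg4 mutant kept its direction in all 17, at 0.47 to 0.65, and its call in 11. Called genes were 268 for Grg3 against control, 410 for Grg3 Grg4 against control and 36 for Grg3 Grg4 against Grg3. In that order they were 586, 930 and 228 with no filter, 169, 30 and 4 with embryo sex as a term, 1463, 1553 and 1019 by DESeq2, and 32 to 327, 50 to 825 and 6 to 49 with 1 library left out. A filter of 1 CPM in 3 libraries gave 75 in the last comparison, and fitting only the 6 libraries compared gave 750 in the second and 10 in the last. The causes of these changes were not tested, beyond the fewer samples or genes of a setting.

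Family members called were 1, 2 and 0. DESeq2 gave 2 in the first comparison and 1 in the last, no filter gave 1 in the last, and in the second they were 1 with sex as a term and 1 to 2 with 1 library left out. Among the lists, DESeq2 called 1 gene of the Tcf, Lef and beta-catenin partner list in the last comparison. It called 2 and 1 Hes and Hey factors in the first and second, and 4, 5 and 2 pancreatic and Runt factors. Co-repressors called were 2 and 1 in the first and last, and kinases and ubiquitin enzymes 3, 1 and 1. The lists held 12, 8, 18, 17 and 11 tested genes, in the order given here. Over all 19166 genes tested, DESeq2 called the larger totals given above, so these counts are not read as results about the lists. With 10 genes on either side, called neighbours in the second comparison were 0 for Tle3, 0 for Tle4 and 1 for the chromosome 10 locus.

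With the replicate number as a block, called genes were 167, 254 and 11, and every family member kept its call. Hipk2, Foxa2, Cd276, Ms4a2 and Hnrnpdl lost theirs in the second comparison, and Id1 and Mzt1 lost theirs in the first. Correlations between same-numbered libraries of different groups ran from -0.0858 to 0.094, and between different-numbered ones from -0.148 to 0.165. These values do not settle whether the numbers pair the embryos.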

Other observations

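The count tables also hold a row for Tle7, a gene named after the family that is not among the members described; it had 0 counts over all 9 libraries.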
